A study of Mus musculus with 4 samples.

Results

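The genes described here are the glucose transporter Slc2a1 and 9 enzymes of glycolysis, Hk1, Hk2, Pfkl, Pfkm, Pfkp, Aldoa, Tpi1, Pgk1 and Pkm, in K7M2, a line of mouse osteosarcoma cells with high metastatic capacity. They were chosen by pathway, but with earlier results of these data known. All 10 were represented among the 18193 named genes of the array, by 25 of its 45101 probe sets. Cells of 1 array over-expressed GFP, the fluorescent protein alone, and cells of the other 3 arrays (replicates 1 to 3) over-expressed ezrinT567A-GFP, an ezrin fused to GFP. Ezrin ties membrane proteins to the actin cortex, and in this mutant the regulatory C-terminal threonine is an alanine, which cannot take up phosphate. Both kinds of cell were K7M2 grown in the same serum-containing medium, and both over-expressed GFP, alone or fused to the ezrin. No array holds cells over-expressing unmutated ezrin, so the mutation and ezrin over-expression cannot be told apart. The series' design text calls the comparison cells wild-type, while the labels of that array give GFP, which is used here. Neither the promoter, nor the species of the ezrin, nor whether replicates 1 to 3 came from different cultures or clones is stated, and the p-values therefore reflect only how far these arrays scatter, which may be technical.

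Glycolysis turns glucose into pyruvate in the cytosol. Glucose enters through carriers such as the one encoded by Slc2a1, is trapped by a hexokinase, and is committed by phosphofructokinase. Aldolase and triose phosphate isomerase then deliver the triose phosphates from which phosphoglycerate kinase and pyruvate kinase make ATP. Tumour cells, osteosarcoma among them, commonly run this pathway fast even with oxygen present, and the hypoxia-inducible factor and Myc are known activators of its genes. According to its title the study also looked at metabolism, and the question here was whether the transcripts of this pathway differed between the ezrinT567A-GFP and the GFP cells.

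Differences in this set were small and lay on both sides of 0. Hk1 and Pfkp, at the top of the pathway, were higher on all 3 ezrinT567A-GFP arrays than on the GFP array, by 0.41 and 0.39 on the log2 scale (1.33-fold and 1.31-fold). Tpi1 and Pkm, further down, were lower on all 3, by -0.31 and -0.25 (1.24-fold and 1.19-fold). Slc2a1, Hk2, Pfkl, Pfkm, Aldoa and Pgk1 had arrays on both sides of GFP or level with it. With limma, 0 of the 10 genes passed at an adjusted p under 0.05, as did 0% of all 18193 genes. At an unadjusted p under 0.05 stood Hk1 on the higher side, where 7.46% of all genes stood, and Pkm on the lower side, where 6.50% stood.

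The counts of genes with all arrays on one side were not above the background. All 3 arrays lay above GFP for 2 of the 10 and below it for 2. Among all genes these shares were 32.5% above and 25.6% below. All 10 members lie in the brighter part of the genes, the 9096 whose mean over the arrays exceeds the median gene's 5.04, and there the shares were 37.0% and 29.6%. Of the 10, 5 had a mean difference above 0 and 5 below, with a median of -0.02, beside 0.03 for all genes. The median size of the difference, sign left aside, was 0.16 for the members and 0.21 for the genes above the median level. The members' adjusted p ran from 0.268 for Hk1 to 0.973 for Hk2 with limma. None of them differed 2-fold.

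**Figure D1:**
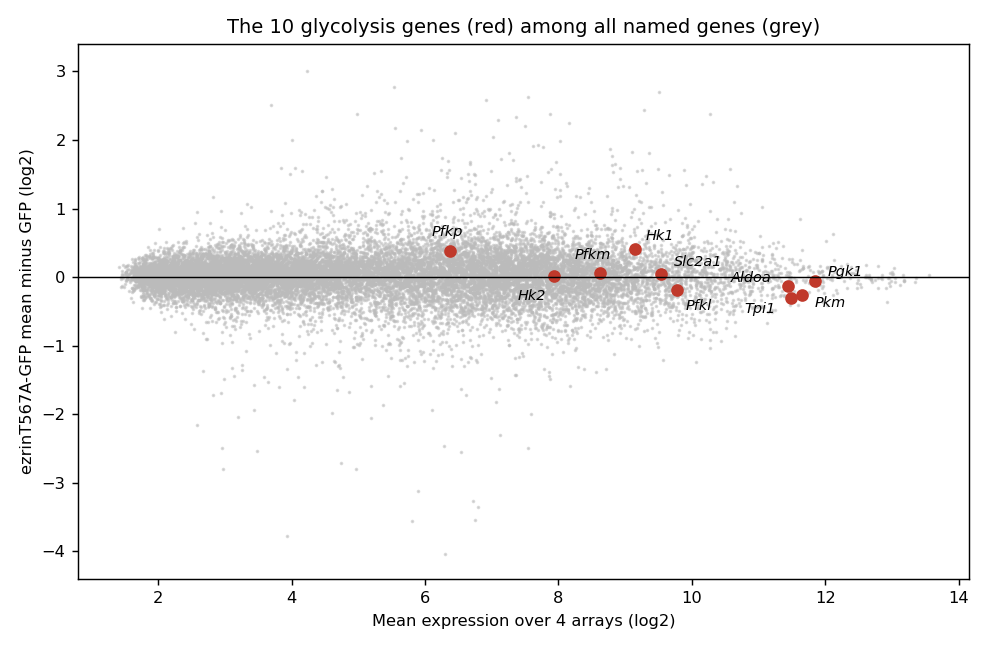
Mean difference between the ezrinT567A-GFP arrays and the GFP array (log2, vertical axis) against mean expression over the 4 arrays (log2, horizontal axis), for all 18193 named genes in grey and the 10 glycolysis genes in red. The red points lie between -0.31 and 0.41, within the grey cloud at their level.

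Every ezrinT567A-GFP array differed from GFP in one direction for Hk1, Pfkp, Tpi1 and Pkm. The bases before the transcription starts of these genes are shown, with matches to the core letters of the hypoxia-inducible factor's site marked. Binding was not measured. Each window holds the 250 bases before a start listed by RefSeq on GRCm38.p6, written 5′ to 3′ on the gene's own strand. Capitals mark the core of that factor's binding site, ACGTG or GCGTG, on either strand. For Hk1 and Pkm, which have 2 listed starts each, the second in the table is shown, and the arrays do not tell which start was used. The windows are chr10:62340422-62340671 (minus strand) for Hk1, chr13:6648772-6649021 (minus) for Pfkp, chr6:124814159-124814408 (minus) for Tpi1 and chr9:59656977-59657226 (plus) for Pkm.
Hk1: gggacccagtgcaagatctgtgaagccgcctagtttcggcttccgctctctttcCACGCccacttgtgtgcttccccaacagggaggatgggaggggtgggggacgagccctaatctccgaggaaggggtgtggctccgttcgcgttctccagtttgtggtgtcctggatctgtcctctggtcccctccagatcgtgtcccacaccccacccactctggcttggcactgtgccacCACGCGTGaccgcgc
Pfkp: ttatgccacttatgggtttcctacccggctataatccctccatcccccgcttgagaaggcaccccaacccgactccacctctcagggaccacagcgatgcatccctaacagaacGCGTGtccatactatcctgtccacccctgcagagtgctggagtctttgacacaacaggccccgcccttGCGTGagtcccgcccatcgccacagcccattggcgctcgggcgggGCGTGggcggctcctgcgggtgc
Tpi1: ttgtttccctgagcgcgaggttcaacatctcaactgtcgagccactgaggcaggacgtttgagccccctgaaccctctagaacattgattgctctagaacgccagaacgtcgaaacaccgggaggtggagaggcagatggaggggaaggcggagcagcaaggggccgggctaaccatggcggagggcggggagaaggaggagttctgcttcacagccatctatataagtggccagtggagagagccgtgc
Pkm: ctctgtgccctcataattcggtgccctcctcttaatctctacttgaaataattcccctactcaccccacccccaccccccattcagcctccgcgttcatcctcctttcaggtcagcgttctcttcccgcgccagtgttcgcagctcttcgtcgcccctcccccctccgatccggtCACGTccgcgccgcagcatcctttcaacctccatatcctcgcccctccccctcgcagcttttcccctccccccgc
The window of Hk1 held 3 cores, 2 of which overlap in the stretch CACGCGTG, and that of Pfkp held 3. The Tpi1 window held 0 and the Pkm window 1. The first listed starts of Hk1 and of Pkm held 0 each. Slc2a1, Hk2 and Pgk1, with arrays on both sides of GFP, held 2 in their single windows, and Pfkl held 1. The windows of Pfkm held 0 to 2 and those of Aldoa 0 or 1. Whether the cores bear on the differences was not tested.

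Over all 10 genes RefSeq listed 17 starts, some of which share bases, and 12 of these windows held ACGTG or GCGTG, beside 38.6% of 32851 windows of the same length. All of the genes except Tpi1 had at least 1 such window, 9 in all. A gene with several starts has more windows in which a match can fall. The background here is a share of windows and not of genes, so it does not apply to counts of genes. Pgk1, a gene long used to study this factor, had 2 cores in its single window. The Myc-type E-box CACGTG, which contains ACGTG, stood in 1 of the 17 windows, at Pfkm, beside 6.02% of all windows. The GC box GGGCGG, searched on both strands, stood in 8 of the 17 windows, at 7 of the genes, beside 32.7% of all windows. A match is a description of letters and not a bound site.

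Slc2a1 encodes GLUT1, the carrier that supplies most cultured cells with glucose. Its brightest probe set, 1434773_a_at, read 9.50 in GFP and 9.73, 9.48 and 9.45 in replicates 1, 2 and 3. Only replicate 1 lay above GFP, and the groups overlapped. The mean was 9.55 ± 0.15 (SD, n = 3), a difference of 0.05 (SE 0.15) with a 95% interval from -0.36 to 0.46 and limma adjusted p = 0.916. The other 2 probe sets gave 0.08 and -0.03, again with replicate 1 the highest. The sign of the mean thus rests on replicate 1, and without it the difference was -0.037.

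Hexokinases phosphorylate glucose and so keep it in the cell, and HK1 and HK2 are the forms that bind the mitochondrial surface. Hk1, measured by 1437974_a_at, read 8.84 in GFP and 9.21, 9.24 and 9.29 in replicates 1, 2 and 3. All 3 arrays lay above GFP and close to each other, at 9.25 ± 0.04 (SD, n = 3). The difference of 0.41 (SE 0.10) had a 95% interval from 0.14 to 0.68, with limma adjusted p = 0.268. The further Hk1 probe set, 1420901_a_at, read 8.34 in GFP and 8.55, 8.65 and 8.64, a difference of 0.27 (limma adjusted p = 0.428 over all named probe sets). Both probe sets thus had every array above GFP. Of the genes above the median level, 11.7% had a more positive difference than Hk1.

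Hk2, the form most often raised in tumours, had 1 probe set, 1422612_at. It read 7.93 in GFP and 7.89, 7.99 and 7.94 in the 3 replicates, on both sides of GFP. The difference was 0.01 (SE 0.11), with a 95% interval from -0.29 to 0.32 and limma adjusted p = 0.973. With the arrays centred on their medians its sign turned, to -0.0055. Within each array the level of Hk1 relative to Hk2 was higher than in GFP by 0.42, 0.34 and 0.44 on the log2 scale, a mean of 0.40 ± 0.05 (SD, n = 3). An exact two-sided permutation of the 4 arrays gave p = 0.25, the smallest that 1 array against 3 allows.

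Phosphofructokinase commits sugar to glycolysis and is built from liver (Pfkl), muscle (Pfkm) and platelet (Pfkp) subunits, which assemble into mixed tetramers. Pfkl, measured by 1439148_a_at, read 9.92 in GFP and 9.46, 9.71 and 10.03 in replicates 1, 2 and 3. Replicates 1 and 2 lay below GFP and replicate 3 above it, at 9.73 ± 0.28 (SD, n = 3), the one SD over 0.2 among the 10 genes. The difference was -0.19 (SE 0.24), with a 95% interval from -0.85 to 0.47 and limma adjusted p = 0.794. A dimmer probe set, 1450269_a_at, read 9.19 in GFP and 8.54, 8.76 and 9.11, all below GFP, and again replicate 3 was the nearest to it. The remaining one, 1453541_at, gave 0.16 from 2.76 in GFP, close to the arrays' lower quartiles (2.55 to 2.62), where a value is not shown to lie above background.

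Pfkm had 1 probe set, 1416780_at, at 8.58 in GFP, 8.75 in replicate 1 and 8.58 in replicates 2 and 3. The values of GFP, replicate 2 and replicate 3 were identical to every digit given, so that its mean difference of 0.06 (SE 0.13, limma adjusted p = 0.885) came from replicate 1 alone. Of all genes, 258 had at least 2 ezrinT567A-GFP arrays at the exact value of GFP. Without replicate 1 the difference of Pfkm was 0.

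Pfkp, measured by 1416069_at, read 6.08 in GFP and 6.34, 6.59 and 6.47 in replicates 1, 2 and 3. Every array lay above GFP, with a mean of 6.47 ± 0.12 (SD, n = 3). The difference of 0.39 (SE 0.15) had a 95% interval from -0.02 to 0.79 and limma adjusted p = 0.370, and 13.3% of the genes above the median level had a more positive difference. Its probe set 1430634_a_at read 5.70 in GFP and 5.48, 6.14 and 5.87, with replicate 1 below GFP, a mean difference of 0.13. The dim 1437759_at gave 0.44, from 2.81 in GFP. Relative to Pfkl on the same array, Pfkp was higher than in GFP by 0.73, 0.72 and 0.29 (mean 0.58 ± 0.25, SD, n = 3, exact permutation p = 0.25, the smallest possible). Relative to Pfkm it was higher by 0.09, 0.51 and 0.39 (exact permutation p = 0.5). Pfkl relative to Pfkm differed from GFP by -0.63, -0.21 and 0.10, on both sides (exact permutation p = 0.75). Levels of different probe sets depend on their probes, so the arrays give no order of abundance among the hexokinase or phosphofructokinase genes.

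**Figure D2:**
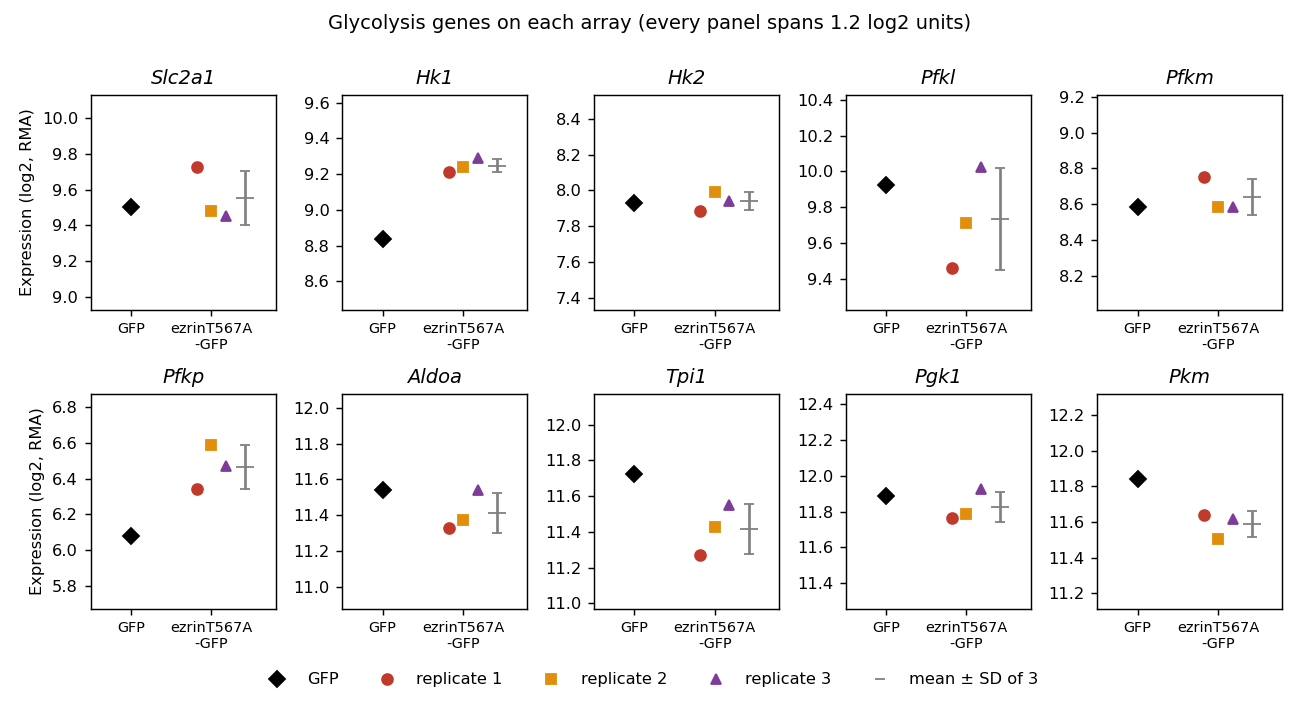
Expression (log2, RMA) of the 10 genes by their brightest probe set, 1 panel a gene, with the GFP array as a black diamond, the 3 ezrinT567A-GFP arrays as coloured symbols and their mean ± SD (n = 3) in grey. All 3 arrays lie above the diamond for Hk1 and Pfkp and below it for Tpi1 and Pkm.

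The probe sets of the 4 members below phosphofructokinase read between 11.54 and 11.89 in GFP. All 4 had a mean difference below 0, as did 4128 of the 9096 genes above the median level. Their median difference was -0.19, and by array it was -0.21, -0.23 and -0.09 in replicates 1, 2 and 3. Replicate 3 lay nearest to GFP. For Aldoa and Pgk1 that array stood level with GFP or above it. Other enzymes of the lower pathway, outside the 10 genes, went both ways, from -0.19 for Eno2 to 0.98 for Aldoc.

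Aldoa encodes the aldolase that cleaves fructose bisphosphate. By 1416921_x_at it read 11.54 in GFP and 11.33, 11.37 and 11.54 in replicates 1, 2 and 3, so that replicates 1 and 2 lay below GFP and replicate 3 level with it. The difference was -0.13 (SE 0.11), with a 95% interval from -0.44 to 0.18 and limma adjusted p = 0.693. All 5 Aldoa probe sets were of the kind whose probes may also match related sequences, so the values of this gene are uncertain. Of them 2 had every array below GFP, and the 5 ranged from -0.24 to 0.09.

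Tpi1 encodes triose phosphate isomerase. By 1452927_x_at it read 11.73 in GFP and 11.27, 11.43 and 11.55 in replicates 1, 2 and 3, all below GFP. The mean was 11.42 ± 0.14 (SD, n = 3) and the difference -0.31 (SE 0.13), with a 95% interval from -0.67 to 0.05 and limma adjusted p = 0.401. Each of the 3 probe sets of Tpi1 had every array below GFP, with differences of -0.31, -0.31 and -0.41. Their probes may share bases, so they do not count as independent. The brightest, 1452927_x_at, is of the kind described for Aldoa, whose probes may also match related sequences. The others, 1415918_a_at and 1435659_a_at, are not of that kind. Of the genes above the median level, 15.5% had a more negative difference.

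Pgk1, the first ATP-making step, read 11.89 in GFP and 11.77, 11.79 and 11.92 in the replicates by 1417864_at, with replicate 3 the highest of the 4 arrays. The difference was -0.06 (SE 0.09), with a 95% interval from -0.32 to 0.20 and limma adjusted p = 0.833. Its 3 probe sets ran from -0.06 to 0.01, and of these 1438640_x_at and 1439435_x_at are of the kind described for Aldoa.

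Pkm encodes the M-type pyruvate kinase, whose alternative exons give PKM1 and the PKM2 form typical of growing cells. Its 1 probe set, 1417308_at, read 11.84 in GFP and 11.64, 11.51 and 11.62 in replicates 1, 2 and 3. Every array lay below GFP, with a mean of 11.59 ± 0.07 (SD, n = 3). The difference of -0.25 (SE 0.09) had a 95% interval from -0.50 to -0.01, with limma adjusted p = 0.342. Of the genes above the median level, 19.2% had a more negative difference. With a single probe set, PKM1 and PKM2 were not told apart here.

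**Figure D3:**
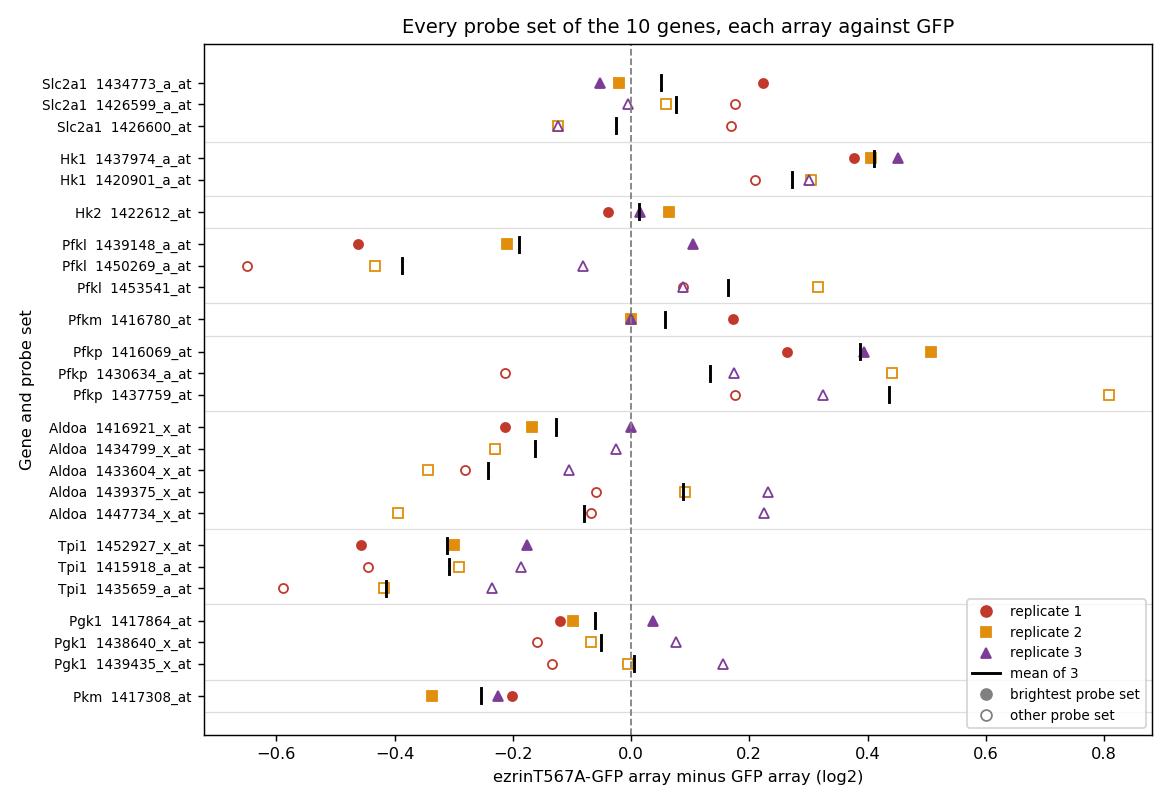
Each ezrinT567A-GFP array minus the GFP array (log2, horizontal axis) for all 25 probe sets of the 10 genes, with replicates as coloured symbols, filled for the brightest probe set of a gene, and the mean of 3 as a black bar. Both probe sets of Hk1 lie right of 0 and all 3 of Tpi1 left of it, while those of Pfkl and Aldoa fall on both sides.

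Of 28 further glycolysis genes, listed by pathway, 22 were represented by a probe set that names them alone. Their mean difference was above 0 for 14 and below 0 for 8, with a median of 0.17, and 10 of the 22 lay at or below the median level of all genes. All 3 arrays lay above GFP for 10 and below it for 3, beside the background of 32.5% and 25.6%. None of the 22 passed with limma, and an unadjusted p under 0.05 was found for 2 on the higher side, beside 7.46% of all genes, and for 0 on the lower, beside 6.50%. The share with all arrays above GFP was thus larger than the background, and the share with all below was smaller. The median of 0.17 stood beside 0.03 for all genes. Whether the list differs from the background was not tested.

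The 2 genes were Slc2a8 and Hkdc1. Slc2a8, an intracellular sugar carrier (GLUT8), read 6.49 in GFP and 6.91, 7.04 and 6.92 in the replicates, a difference of 0.47 (SE 0.13, limma adjusted p = 0.283). Hkdc1, a further hexokinase gene, read 4.98 and then 5.72, 5.99 and 5.48, a difference of 0.75 (SE 0.23, limma adjusted p = 0.307), but its other, dim probe set gave 0.06. Pgam1, phosphoglycerate mutase, read 11.59 in GFP and 11.48, 11.52 and 11.64, on both sides of GFP, a difference of -0.04 (SE 0.09).

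Gapdh, the dehydrogenase between Tpi1 and Pgk1, had no probe set of its own among those tested. The array's 3 control probe sets for Gapdh gave -0.04 at the 3′ end, -0.07 in the middle and -0.10 at the 5′ end of the transcript, with 12.70, 12.82 and 12.97 in GFP. Replicate 3 lay above GFP at the 3′ end, and the other control values lay below it.

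Regulators of glycolytic genes were listed as well, 14 in all. None of the 14 passed with limma. An unadjusted p under 0.05 was found for 2 on the higher side (Hif1a and Arrdc4), beside 7.46% of all genes, and for 2 on the lower (Egln3 and Myc), beside 6.50%. Their median difference was -0.06. Hif1a, the oxygen-regulated subunit of the hypoxia-inducible factor, read 10.02 in GFP and 10.31, 10.29 and 10.46 in replicates 1, 2 and 3. Each lay above GFP, and the mean did so by 0.34 (SE 0.11, limma adjusted p = 0.320). The other 3 probe sets of Hif1a gave 0.33, 0.50 and, for the dimmest, -0.10. Egln3, a prolyl hydroxylase that marks this factor for breakdown and is itself one of its target genes, read 8.24 in GFP and 6.50, 3.92 and 4.92. All 3 arrays lay far below GFP and far from each other. The mean differed by -3.12 (SE 1.04), which is 8.72-fold lower, with limma adjusted p = 0.331. Its further probe set gave -2.49, from 5.94 in GFP.

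Myc read 9.20 in GFP and 8.71, 8.75 and 8.70 in the replicates, a difference of -0.48 (SE 0.10, limma adjusted p = 0.236). The 3 arrays lie close together and below GFP. Arrdc4, which with Txnip restrains glucose uptake, read 4.69 in GFP and 5.47, 5.59 and 5.30, a difference of 0.76 (SE 0.16, limma adjusted p = 0.241), and its other probe set gave 0.36. Txnip had arrays on both sides of GFP, with a difference of -0.16 (SE 0.23). Of the 4 splicing factors known to act on Pkm, Ptbp1, Hnrnpa1, Hnrnpa2b1 and Srsf3, none had an unadjusted p under 0.05 by its brightest probe set, and their differences ran from -0.23 to 0.0016.

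**Figure D4:**
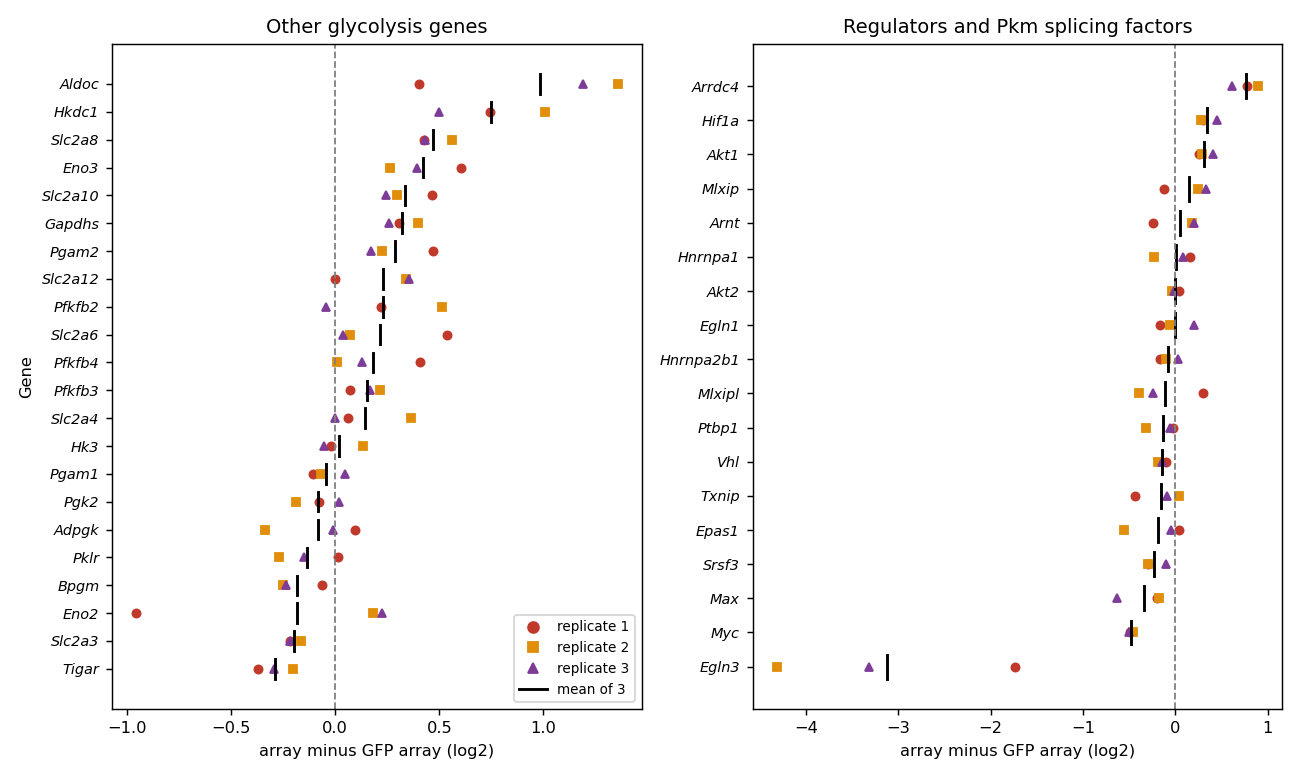
Each ezrinT567A-GFP array minus the GFP array (log2, horizontal axes, with different ranges) for 22 other glycolysis genes on the left and for 14 regulators with 4 splicing factors on the right, replicates as coloured symbols and their mean as a black bar. Slc2a8 and Hkdc1 have every replicate right of 0, and Egln3, at -3.12, stands apart from all others.

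The arrays differed in ways that the groups also share. Hybridization spike-ins averaged 9.32 on the GFP array and 10.1 to 11.1 on the others, and the 3′ minus 5′ signal of the Gapdh controls was -0.27 on GFP and -0.24 to -0.18 on the others. The same signal of the Actb controls was 0.23 on GFP and 0.31 to 0.43 on the others. The 18S control probe sets averaged 9.09 on GFP, 11.3 on replicate 2 and 7.65 and 7.76 on replicates 1 and 3, so that replicate 2 stands apart in this measure. Of 6 epithelial markers, chosen after their values were seen, 5 lay below GFP on all 3 ezrinT567A-GFP arrays. The share among all genes was 25.6%, but for a list chosen in this way that comparison is no test. Krt18, the remaining marker, was level with GFP or above it (0.03), and 4 of the 6 lay at or below the median level. The mean level of the 6 was 5.00 in GFP and 3.71 to 4.06 in the others. The differences were -2.80 for Krt14 (6.98-fold lower), -2.05 for Krt5 (4.14-fold), -1.28 for Cdh1 (2.43-fold), -0.43 for Epcam and -0.42 for Krt8, with limma adjusted p of 0.146 to 0.346. Those of Krt14, Krt5 and Cdh1 were larger in size than any difference of the 10 glycolysis genes. Those of Epcam and Krt8 were near the 0.41 of Hk1 in size. Of 10 osteoblast markers 6 were measured, with Col1a1, Col1a2 and Sparc bright (11.31, 12.28 and 11.33 in GFP), Sp7 at 5.05, and Alpl and Ibsp dim at 3.63 and 2.78. The mean level of these 6 was 7.73 in GFP and 7.70 to 7.82 in the others. Markers of skeletal muscle (4 genes) averaged 3.78 in GFP and 3.82 to 3.98 in the others, and those of endothelium (2 genes) and red cells (2 genes) were as dim. Of 4 macrophage markers only Csf1r lay above the median gene, and their mean was 5.19 in GFP and 5.11 to 5.28 in the others. In such bulk RNA, fewer cells of a type and less RNA per cell cannot be told apart. Their part in the differences of the glycolysis genes was not tested. Each gene's chromosome gave a median of -0.14 to 0.09 over its other genes above the median level, with -0.07 on chromosome 6 (Tpi1) and 0.02 on chromosome 10 (Hk1).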

How the data were processed

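Total RNA of 4 K7M2 samples was turned into biotinylated cRNA for one-colour Affymetrix arrays, per the labels' protocols. The authors deposited log2 expression for each probe set, made with RMA (background correction, quantile normalization and summary over probes) per the submitters' processing notes. The log2 scale was read from the range, 1.18 to 13.7. The RMA software was not given in the sources used. Since RMA makes the arrays' distributions nearly equal, it would hide a shift in RNA amount shared by all genes.

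The platform annotation gave 34958 probe sets 1 gene, 932 several and 9211 none. Gene IDs of 34741 of the 34945 probe sets used matched RefSeq on GRCm38.p6. Controls (64 probe sets) and probe sets without exactly 1 gene were not tested. Each gene stood by its probe set with the highest mean over the 4 arrays, and the others are shown beside it.

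Groups came from the sample titles. The model was fitted on all 4 arrays with limma 3.58.1 under R 4.3.3, the prior variance following the mean level,, adjusted over 18193 genes after Benjamini and Hochberg, two-sided, at 0.05. The 2 residual degrees of freedom come from the ezrinT567A-GFP arrays, and the single GFP array is assumed to vary like them. Their number limits the precision. SE is the moderated standard error. The scripts were tested on simulated data. Figures used matplotlib 3.10.9.

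Members and lists were chosen with earlier results of these data known. All 10 members are named. Of the other glycolysis genes, those with an unadjusted p under 0.05 or a difference of at least 1 are named, and Gapdh in any case, by its control probe sets. Of the regulators and splicing factors, those with an unadjusted p under 0.05 are named. Other genes named, the cell type markers among them, were chosen outside that rule, after their values were seen. Alternatives were quantile normalization, centring, the mean of probe sets, plain _at probe sets, single probe sets, no dim genes, other priors and leaving out each replicate.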

Additional observations from a re-analysis of the deposited data

How the results depend on the processing

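No member of the set was called by limma under any of the alternatives run. Of 107 recomputed differences 5 turned sign, and that of Pfkm without replicate 1 was 0. The signs that turned were those of Slc2a1 with plain _at probe sets (-0.026), of Pfkl with them (0.16, a dim probe set) and of Hk2 after centring (-0.0055). Leaving out 1 replicate gave -0.037 to 0.10 for Slc2a1, below 0 without replicate 1, and -0.012 to 0.039 for Hk2, below 0 without replicate 2. It gave -0.34 (without replicate 3) to -0.052 (without replicate 1) for Pfkl, and in the same order -0.19 to -0.084 for Aldoa and -0.11 to -0.031 for Pgk1. Hk1 ranged from 0.34 to 0.43 with adjusted p of 0.166 to 0.558, Pfkp from 0.32 to 0.45 (0.252 to 0.607), Tpi1 from -0.38 to -0.24 (0.264 to 0.558) and Pkm from -0.28 to -0.21 (0.219 to 0.559). Hk1, Aldoa and Tpi1 have no plain _at probe set and gave no value there.

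The count of all genes called depended on the processing. It was 0 as reported, 34 after quantile normalization, 30 after centring, 9 under the robust prior, 6 when a gene's probe sets were averaged and 3 without dim genes, and the cause was not tested. By single arrays against GFP, the members' median was -0.080, -0.060 and 0.0079 in replicates 1, 2 and 3, and that of the other glycolysis genes 0.083, 0.197 and 0.089, beside -0.024 and 0.17 over all 3. With plain _at probe sets the members' median was 0.013. That setting lacks Hk1, Aldoa and Tpi1 and takes Pfkl from a dim probe set, so its median does not cover the same genes. The median of replicate 3 alone was also above 0, so the sign is not settled. No paired analysis was possible because the GFP group has 1 array and no replicate number. The limit of these data is that single GFP array: its own spread is not measured, and the dimmest probe sets are not shown to be above background.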

Other observations

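Probe sets shared between genes were left out of every test. One that matches Hk1 together with Rpl17 and its copies read 12.53 in GFP and 12.61, 12.45 and 12.49 in replicates 1, 2 and 3, a difference of -0.02, where the probe sets of Hk1 alone gave 0.41 and 0.27. The brightest shared Gapdh probe set, which also matches copies of the gene, read 12.91 in GFP and 12.81, 12.82 and 12.91. Its difference was -0.07, beside -0.10 to -0.04 for the control probe sets of Gapdh. The dimmer shared Gapdh probe sets, which also match a copy, gave differences larger in size, of -0.30 and -0.40. The former read 7.26 in GFP and 7.10, 6.47 and 7.30, with replicate 3 above GFP. The latter read 6.49 in GFP and 5.95, 6.13 and 6.17, all below GFP.

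The probe sets of Hnrnpa2b1, a splicing factor that acts on Pkm, disagreed in size. The brightest, 1420365_a_at, gave -0.08 with replicate 3 above GFP. The other 3 gave -1.05, -0.63 and -0.42, with every array below GFP. All 6 probe sets of Srsf3, a further such factor, had every array below GFP, with differences from -0.52 to -0.23. Those of Ptbp1 gave -0.13 with every array below GFP, and -0.03 and -0.04 with arrays on both sides or level. Of Hnrnpa1, 2 gave 0.0016 and 0.03 with arrays on both sides, and a dimmer one gave -0.69 with every array below GFP. These values were singled out after they were seen, and none of them was tested as a group. Among the enzymes, Aldoc, the aldolase of the brain, read 4.45 in GFP and 4.85, 5.81 and 5.64, a difference of 0.98 (SE 0.42, limma adjusted p = 0.403), and its dimmer probe set gave 0.03. Eno3, the muscle enolase, was above GFP on all 3 arrays, at 9.13 in GFP and 9.73, 9.39 and 9.52, a difference of 0.42 (SE 0.16, limma adjusted p = 0.376).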
